A study of Bos taurus with 16 samples.

Results

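The genes described here are NR5A1, NR5A2, CYP17A1 and CYP11B1, a pair of nuclear receptors that control steroid-making genes and a pair of steroid enzymes that are best known from other tissues than the corpus luteum. They were looked for by gene name, accession and description among the 15208 gene probes of a custom bovine array. The 4 genes, of 6746 with a symbol on the array, are represented by 5 probes, 2 of them for NR5A1. All 5 are among the 11943 probes that passed the filter on dim probes, which asked for 3 arrays well above background within any 1 group, and CYP11B1 passed through the cyclic group alone.

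The arrays measured RNA from whole corpora lutea of 16 Japanese Black cows, 1 gland on each array. The cyclic group was taken on days 10-12 of the estrous cycle, and the other 3 groups on days 20-25, 40-45 and 150-160 of pregnancy, with 4 cows in each and no treatment. Days of pregnancy were counted with insemination as day 1, so the glands of pregnancy were also older than the cyclic glands, and the effects of age and of pregnancy cannot be told apart. Each sample came from a separate cow, and cows are numbered 1 to 4 within a group.

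The corpus luteum is the gland that forms from the ovulated follicle and makes progesterone. NR5A1, also called steroidogenic factor 1, and NR5A2, also called liver receptor homolog 1, are related nuclear receptors that bind the same kind of DNA element as single molecules and switch on genes such as STAR and CYP11A1. NR5A1 is the family member known from the adrenal cortex and gonads, and NR5A2 is known from liver and from granulosa and luteal cells of the ovary. CYP17A1 turns pregnenolone and progesterone into precursors of androgen and cortisol, and in the ovary it is a marker of the theca cells of the follicle. CYP11B1 makes the last step to cortisol and is a marker of the adrenal cortex.

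The probes are single strands of 60 bases. The whole sequence of NR5A1 probe 2 and the first 30 bases of the others are printed, as deposited with the arrays, to show which transcript stretch each value stands for. Genome positions were not used here.
NR5A1 probe 1, first 30 bases: tggtgggcctcaacgtcccttgagtcagag
NR5A1 probe 2, all 60 bases: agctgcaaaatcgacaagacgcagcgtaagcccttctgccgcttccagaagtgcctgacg
NR5A2, first 30 bases: tcctcgttgacgttacttaactgtatctgt
CYP17A1, first 30 bases: cgcccactctgccttctttcccagcctgca
CYP11B1, first 30 bases: tgctcgcctgatggtgctgagggcagcttg
The 2 NR5A1 probes read different stretches, and the longest run of letters that either shares with any other member probe is 6 bases. NR5A1 probe 1 is filed under the gene's RefSeq transcript, while NR5A1 probe 2 is filed under an older database entry that is described as steroidogenic factor 1. The NR5A2 probe comes from an expressed sequence tag described as similar to human NR5A2, and its GC content of 38.3% was the lowest of the 5, against 55% for CYP17A1 and CYP11B1, 56.7% for NR5A1 probe 2 and 60.0% for NR5A1 probe 1. No member probe shares a run of more than 15 bases with any other probe of the array.

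Levels are log2 processed signals from which the same array's 75th percentile was subtracted, so a level of 0 is a probe as bright as that percentile and a difference of 1 is a 2-fold difference. The percentile lay between signals of 2020 and 4288 on the 16 arrays, and the share of probes well above background was 71.9% to 79.6%. A level is compared only with the same probe on other arrays. The labelled tissue was checked against luteal genes: STAR, CYP11A1, HSD3B1 and LHCGR were well above background on every array, and their linear levels summed to 289 to 565 times the array's percentile. The arrays lay on 2 slides, each with 2 arrays of every group, and each group had its own places on the slide, so the place of an array and its group cannot be told apart.

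CYP17A1 was the member that rose. Its level was close to -3 in cyclic cows and in the first 2 stages of pregnancy, and it was about 6-fold higher on days 150-160. CYP11B1 went the other way: it was well above background in 3 of the 4 cyclic cows and on no array from day 40 on. Both NR5A receptors were well above background on all 16 arrays, and neither was called in any comparison. In bulk RNA, a change in the number of cells of a type and a change in RNA per cell cannot be told apart.

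**Figure D1:**
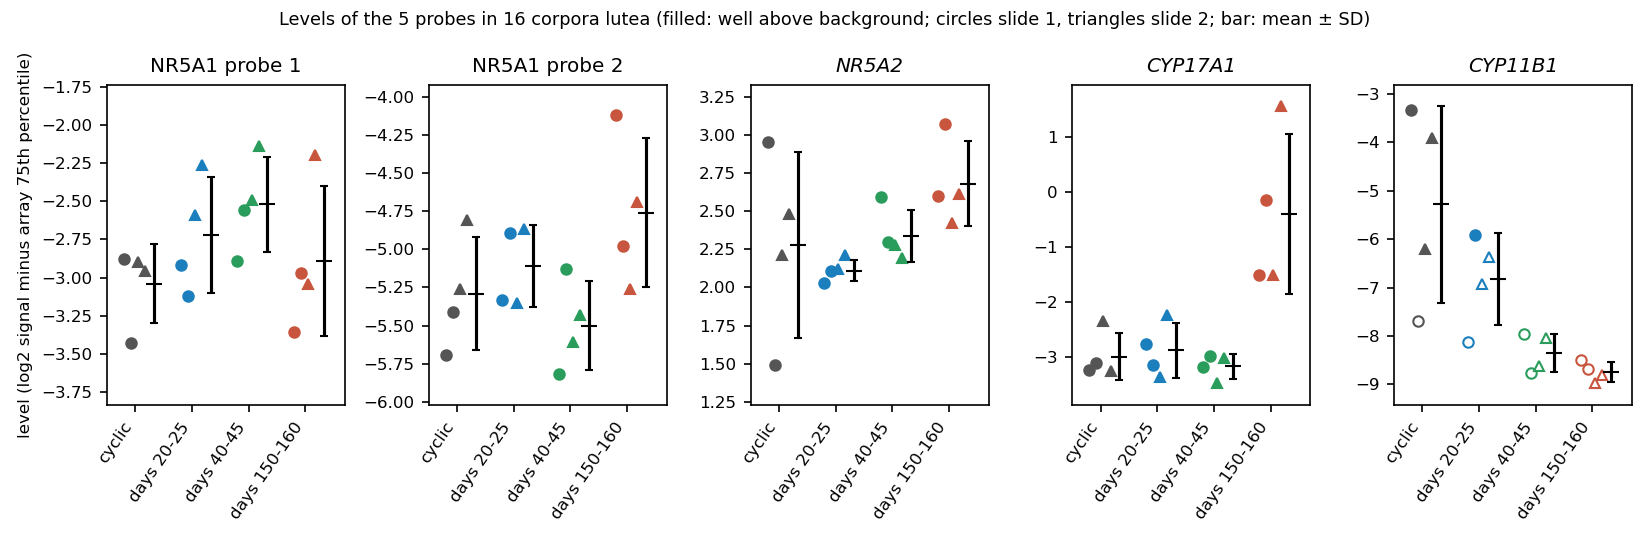
Level of each of the 5 probes (log2 signal minus the array's 75th percentile, y axes differ) in 4 cows of each group, with filled points well above background, circles for slide 1, triangles for slide 2, and bars for the group mean ± SD. The 4 CYP17A1 values of days 150-160 lie between -1.52 and 1.56, above the 12 others, while all 8 CYP11B1 values of days 40-45 and 150-160 are open points.

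NR5A1 was called in no comparison by either probe, and the 2 probes put the groups in different orders. With probe 1 the cyclic cows 1 to 4 measured -2.88, -3.43, -2.90 and -2.96. On days 20-25 the values were -2.92, -3.12, -2.59 and -2.26, and on days 40-45 they measured -2.89, -2.56, -2.49 and -2.14. On days 150-160 they were -3.36, -2.97, -3.04 and -2.20. The ranges of all 4 groups overlapped, and cow 2 of the cyclic group was the lowest of all 16. The group means in rising order were -3.04 ± 0.26 for cyclic, -2.89 ± 0.49 for days 150-160, -2.72 ± 0.38 for days 20-25 and -2.52 ± 0.31 for days 40-45 (SD, n = 4 each), and no neighbours in that order differed by more than their SDs. The difference from cyclic was 0.52 on days 40-45 (95% confidence interval -0.01 to 1.06, adjusted p = 0.356), 0.32 on days 20-25 (adjusted p = 0.57) and 0.15 on days 150-160 (adjusted p = 0.765).

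NR5A1 probe 2 was a dim probe, with processed signals of 51.7 to 146.5, and it did not follow probe 1. The cyclic cows measured -5.69, -5.41, -5.26 and -4.81, and the cows of days 20-25 measured -5.33, -4.89, -5.35 and -4.87. Those of days 40-45 measured -5.82, -5.13, -5.61 and -5.43, and days 150-160 gave -4.12, -4.98, -5.26 and -4.69. Here days 40-45 had the lowest mean, -5.50 ± 0.29 (SD, n = 4), and days 150-160 the highest, -4.76 ± 0.49 (SD, n = 4), whereas with probe 1 days 40-45 had the highest mean. The difference of days 150-160 from cyclic was 0.53 (95% confidence interval 0.00 to 1.06, adjusted p = 0.211), and days 150-160 lay 0.73 above days 40-45 (95% confidence interval 0.21 to 1.26, adjusted p = 0.349), with overlapping groups in both. Against days 20-25, days 40-45 differed by 0.20 with probe 1 and -0.39 with probe 2 (adjusted p = 0.848 and 0.675), and 0.0335% of all probes were called between these stages. Over the 16 arrays the levels of the 2 probes had a Pearson r of -0.13 as a description, with both read from the same arrays. The moderated F test over the 4 groups gave an adjusted p of 0.51 for probe 1 and 0.26 for probe 2.

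NR5A2 was bright in every gland, with processed signals of 8841 to 33170. The cyclic cows measured 2.95, 1.49, 2.21 and 2.48, the widest spread of any group. Days 20-25 gave 2.03, 2.11, 2.12 and 2.21, and the cows of days 40-45 measured 2.59, 2.30, 2.28 and 2.19. Days 150-160 gave 2.60, 3.07, 2.42 and 2.61. All 4 values of days 150-160 were above all 4 of days 20-25, but the cyclic range took in all but 1 of the values of pregnancy, the 3.07 of cow 2 on days 150-160.

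The NR5A2 means ran from 2.11 ± 0.07 on days 20-25 through 2.28 ± 0.61 in cyclic cows and 2.34 ± 0.17 on days 40-45 to 2.68 ± 0.28 on days 150-160 (SD, n = 4 each). Days 150-160 lay 0.39 above cyclic (95% confidence interval -0.11 to 0.90, adjusted p = 0.341). They lay 0.56 above days 20-25 (95% confidence interval 0.06 to 1.07, adjusted p = 0.295), which was not called. Groups that do not overlap in that direction were found for 3.50% of all probes in the same comparison. The differences of days 20-25 and 40-45 from cyclic were -0.17 and 0.06 (adjusted p = 0.772 and 0.955), and the F test gave an adjusted p of 0.434. Against cyclic the intervals reach 1.06 for NR5A1 and 0.90 for NR5A2, so differences of that size are not shown to be absent.

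CYP17A1 was low in 12 glands and higher in the 4 glands of days 150-160. The cyclic cows measured -3.24, -3.12, -2.36 and -3.27, the cows of days 20-25 measured -2.77, -3.16, -3.37 and -2.24, and those of days 40-45 measured -3.19, -2.99, -3.49 and -3.03. The cows of days 150-160 measured -1.51, -0.15, -1.52 and 1.56. Those 4 lay above every other gland, and they also differed most among themselves: cows 1 and 3 were nearly equal, and cow 4 was more than 3 units above them. In processed signal, cows 1 to 4 of days 150-160 had 899, 2379, 933.7 and 6399, and the 12 other glands had 204 to 488.8.

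The CYP17A1 means in rising order were -3.18 ± 0.23 on days 40-45, -3.00 ± 0.43 in cyclic cows, -2.89 ± 0.50 on days 20-25 and -0.41 ± 1.46 on days 150-160 (SD, n = 4 each). Neighbours among the first 3 differ by less than their SDs. Days 150-160 rose above cyclic by 2.59 (SE 0.52, 95% confidence interval 1.48 to 3.71), which is 6.04-fold, with an adjusted p of 0.00848. The SE, interval and p of this comparison take 1 spread pooled over the 4 groups. The SDs were unequal, 1.46 on days 150-160 against 0.23 to 0.50 in the other groups, so the SE may be too small here. In that comparison 7.97% of all probes were called, 4.65% as higher, and CYP17A1 was the 47th largest rise. Groups that do not overlap, with days 150-160 higher, were found for 6.63% of all probes. The rise was 2.35 within slide 1 and 2.84 within slide 2, neither called (adjusted p = 0.0512 and 0.334), and it was called with slide as a block (adjusted p = 0.00938). Without cow 4 of days 150-160 the rise was 1.94 (adjusted p = 0.00669), and with only the cyclic and days 150-160 arrays in the fit it was 2.59 with an adjusted p of 0.0709.

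CYP17A1 on days 150-160 was also set against the earlier stages of pregnancy, and it was called higher than on days 20-25. Against days 20-25 the difference was 2.48 (SE 0.52, 5.58-fold, adjusted p = 0.0278), where 1.57% of all probes were called and 0.645% as higher. Against days 40-45 it was 2.77 (SE 0.52, 6.82-fold), the 11th largest positive difference, with an adjusted p of 0.0696, in a comparison where 0.0419% of all probes were called. Groups that do not overlap in that direction made up 4.10% of all probes against days 40-45 and 3.50% against days 20-25. The call against days 20-25 was lost without cow 1, 2 or 3 of days 20-25 or cow 2 of days 150-160 (differences 2.32 to 2.52, adjusted p up to 0.0864). It was also lost within slide 1 (2.14, adjusted p = 0.137), within slide 2 (2.82, adjusted p = 0.422) and with only the 2 groups in the fit (2.48, adjusted p = 0.128). Without cow 4 of days 150-160 the difference was 1.83 against days 20-25 (adjusted p = 0.0241) and 2.11 against days 40-45 (adjusted p = 0.0662). A call against days 40-45 was gained without cow 3 of days 150-160 (3.14, adjusted p = 0.0297). The F test over the 4 groups gave an adjusted p of 0.0167, against 3.86% of all probes called by it. It gave 0.0595 without cow 2 of days 150-160, and 0.137 and 0.451 within slides 1 and 2. These comparisons share the arrays of days 150-160.

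Days 20-25 and 40-45 did not differ from cyclic in CYP17A1 beyond the spread. The differences were 0.11 (95% confidence interval -1.0 to 1.23, adjusted p = 0.943) and -0.18 (95% confidence interval -1.29 to 0.94, adjusted p = 0.936). The spread of CYP17A1 within groups, an SD of 0.81 pooled over the 4 groups, was larger than that of 93.3% of the probes tested, whose median was 0.31. It includes the SD of 1.46 on days 150-160, while the other groups had 0.23 to 0.50. The 2 intervals given here also take a pooled spread and so are wide for these groups.

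**Figure D2:**
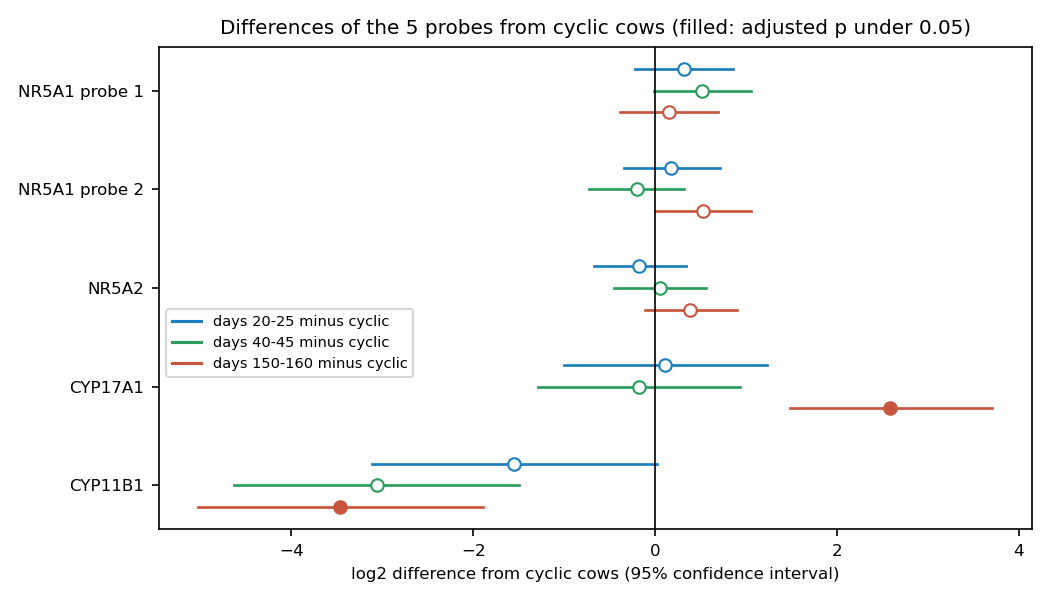
Difference of each pregnancy stage from cyclic cows for the 5 probes (log2, points, with 95% confidence intervals as lines), with filled points where the adjusted p is under 0.05. Only CYP17A1, at 2.59, and CYP11B1, at -3.46, have a filled point, both for days 150-160. The CYP11B1 point and its interval rest on surrogate values on days 150-160, and CYP11B1 passed the filter through the cyclic group alone.

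CYP11B1 was well above background in 3 cyclic glands, in 1 gland of days 20-25 and in none of the later stages. The cyclic cows measured -3.33, -7.70, -6.20 and -3.91, and cow 2 was not well above background. The cows of days 20-25 measured -8.12, -5.92, -6.92 and -6.36, and only cow 2 was well above background. Not well above background on any array, the cows of days 40-45 measured -7.96, -8.77, -8.61 and -8.05, and those of days 150-160 measured -8.50, -8.69, -8.98 and -8.81. The cyclic group therefore spans 4.36 units and reaches down to a level that is not well above background.

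The 4 CYP11B1 values of days 150-160 are not measurements. The scanner software replaces a signal that does not exceed its error by a surrogate, 1 value for all such probes of an array, and CYP11B1 held it on all 4 arrays of days 150-160 and on none of the 12 others. The SD of 0.20 in that group is the spread of the arrays' surrogate values, which 1495 to 1644 probes shared on these arrays, and enters the test as if it were measured. The processed signals of CYP11B1 were 426.2, 15.1, 27.5 and 183.2 in cyclic cows 1 to 4 and 4.8 to 13.8 on days 40-45 and 150-160.

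The CYP11B1 means were -5.28 ± 2.03 for the cyclic group, -6.83 ± 0.95 for days 20-25, -8.35 ± 0.40 for days 40-45 and -8.74 ± 0.20 for days 150-160 (SD, n = 4 each). The last 2 are not well above background on any array and have no order. Days 150-160 lay below cyclic by a difference of -3.46 (SE 0.73, 95% confidence interval -5.02 to -1.89, adjusted p = 0.0115), where 3.32% of all probes were called lower. The SE pools 1 spread over the 4 groups, although their SDs run from 0.20 to 2.03, so it may be too small for this difference. Days 150-160 gives only a bound on these arrays, which puts its group mean 2.23-fold below the cyclic mean. Each dim array counts there with its lowest signal well above background or, if higher, its CYP11B1 signal. Cyclic cow 2, not well above background, counts as measured, and sampling error is left out, so no smallest fold is established. The bound for days 40-45 on these arrays is 2.93-fold. Its difference was -3.06 (SE 0.73) with an adjusted p of 0.0563, which was not called against 1.23% of all probes. With values not well above background raised to the lowest signal that is, the difference of days 40-45 was -1.75 (adjusted p = 0.167). The 2.23-fold and 2.93-fold bounds rest on single cyclic cows. Without cyclic cow 1 they are 1.42-fold (days 150-160) and 1.87-fold (days 40-45). Without cyclic cow 2 they are 3.9-fold and 5.12-fold, a check chosen after seeing the data. In both comparisons the groups do not overlap, as for 5.07% (days 150-160) and 4.54% (days 40-45) of all probes in that direction.

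How CYP11B1 is called depends on how signals not well above background are treated. With normexp background correction the difference of days 150-160 from cyclic was -0.93 (adjusted p = 0.107), and with values not well above background raised to the lowest signal that is, -1.35 (adjusted p = 0.172). Within slides 1 and 2 it was -3.08 and -3.84 (adjusted p = 0.248 and 0.121), without cyclic cow 1 it was -2.81 (adjusted p = 0.0274), and without cyclic cow 2 it was -4.26 (adjusted p = 0.00128). With only the 2 groups in the fit its adjusted p was 0.0703. The difference of days 40-45 was called without cyclic cow 2 (-3.87, adjusted p = 0.00991) or cow 3 (-3.37, adjusted p = 0.0463). On days 20-25 CYP11B1 differed from cyclic by -1.55 (SE 0.73, adjusted p = 0.358, 0.293% of all probes called), with overlapping groups. Days 150-160 lay below days 20-25 by -1.91 (SE 0.73, adjusted p = 0.242) with no overlap, as for 5.13% of all probes in that direction, but 3 of the 4 values of days 20-25 were not well above background either, and with raised floors this difference was -0.01. The F test gave an adjusted p of 0.0354, which also takes in the surrogate values. It was 0.177 with normexp, 0.237 with raised floors, and 0.509 and 0.251 within slides 1 and 2. Without 1 array it stayed under 0.05 in 4 of 16 fits (adjusted p up to 0.0951 in the others). Those 4 were the fits without cyclic cow 2 or 3 or cow 1 or 4 of days 20-25. CYP11B1 varied more within groups (SD 1.14, pooled over the 4 groups) than 97.8% of the probes tested.

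Beside these 2 enzymes stand the markers of the cells that normally make them. For theca cells the list held CYP17A1 itself and INSL3, a hormone of theca and luteal cells. INSL3 on days 150-160 measured 5.39, 5.01, 2.70 and 7.10, so cow 4, the highest for CYP17A1, was also the highest for INSL3, and cow 3 was the lowest. INSL3 was not called in any stage against cyclic (differences -1.09, -1.84 and -0.69 on days 20-25, 40-45 and 150-160, adjusted p = 0.52, 0.268 and 0.636), and the cyclic cows, low in CYP17A1, had INSL3 levels of 5.30 to 6.15. The summed linear level of the 2 theca markers was 39.4 to 71.2 in cyclic cows, 11.8 to 65.5 on days 20-25, 8.86 to 30.8 on days 40-45 and 6.84 to 140 on days 150-160. This sum is mostly INSL3, whose cyclic mean level was 5.74 against -3.00 for CYP17A1, and so says little about CYP17A1.

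For the adrenal cortex the list held CYP11B1, the 21-hydroxylase CYP21A2, the ACTH receptor MC2R and MRAP, of which 3 were found on the array. CYP21A2 was well above background in every gland and differed from cyclic by 0.00 on days 150-160 (adjusted p = 0.999). MC2R was well above background in 14 of 16 glands, and its difference was 0.53 (adjusted p = 0.468). In cyclic cow 1, the highest for CYP11B1, MC2R was at -7.25 and not well above background, and CYP21A2 was at -2.26, within the range of -2.98 to -1.71 in the cyclic group. The summed linear level of the 3 was 0.211 to 0.323 in cyclic cows, 0.086 to 0.306 on days 20-25, 0.13 to 0.461 on days 40-45 and 0.168 to 0.316 on days 150-160. This sum is mostly CYP21A2, whose cyclic mean level was -2.28 against -5.28 for CYP11B1 and -6.19 for MC2R.

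Markers of other cell types also moved by days 150-160. Set against 4.65% of all probes called higher and 3.32% called lower in that comparison, of 6 fibroblast markers 3 were called lower (COL1A2 at -2.72, COL1A1 at -1.63 and COL3A1 at -1.13), of 6 leukocyte markers found 1 was called lower (CD68 at -1.57) and of 7 endothelial markers 1 was called higher (TEK at 0.85). The summed fibroblast level was 47.1 to 73.4 in cyclic cows and 31.2 to 43.6 on days 150-160. Of 2 markers of large luteal cells, PTGFR was called higher (mean 4.06 in cyclic cows, 4.91 on days 150-160) and OXT lower (-7.97). Their summed level was 59.1 to 103 in cyclic cows and 28.2 to 35.6 on days 150-160. None of 5 granulosa markers was called, and their summed level was 9.26 to 13.3 in cyclic cows and 6.91 to 9.43 on days 150-160. The part of these shifts in the values of CYP17A1 and CYP11B1 was not tested.

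**Figure D3:**
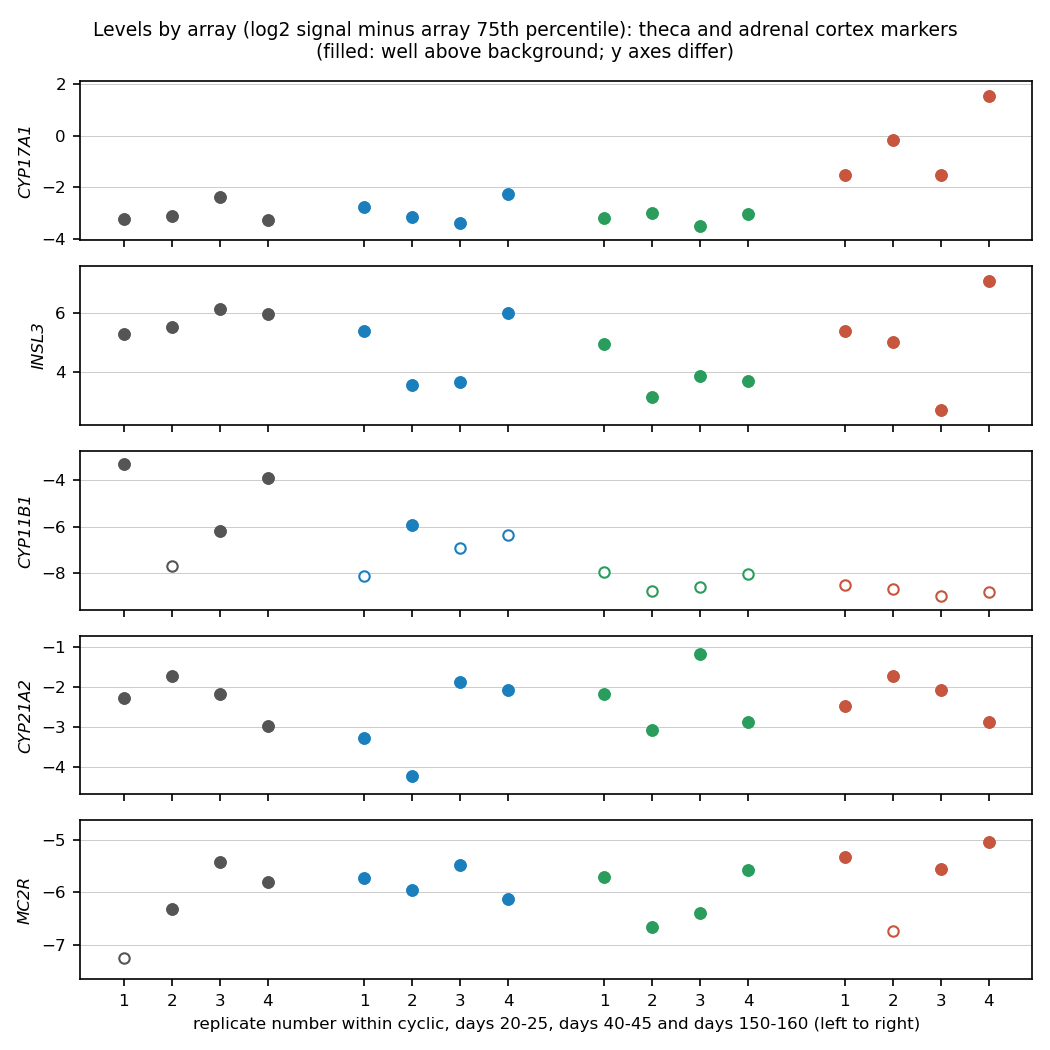
Level by cow (log2 signal minus the array's 75th percentile, y axes differ) of CYP17A1 with the theca marker INSL3, and of CYP11B1 with the adrenal cortex markers CYP21A2 and MC2R, in the 4 groups, with filled points well above background. Cow 4 of days 150-160 is highest of its group for CYP17A1 (1.56) and INSL3 (7.10), and CYP21A2 is well above background where CYP11B1 is not.

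Enzymes of androgen, estrogen and corticoid metabolism were followed as a list of 32 genes, of which 18 were on the array and 14 were tested. On days 150-160 against cyclic, 2 rose and 3 fell, members included, where 4.65% of all probes were called higher and 3.32% lower, and their median difference was 0.03, against 0.026 for all probes. CYP11B1, among the 3, passed the filter through the cyclic group alone and holds surrogates on days 150-160. Besides CYP17A1, AKR1C4 rose, an aldo-keto reductase that acts on steroid hormones. It measured -3.48, -3.98, -3.89 and -2.17 on days 150-160 against -5.78 to -4.56 in cyclic cows, a difference of 1.68 (SE 0.48, adjusted p = 0.0445) that was 1.22 and 2.14 within slides 1 and 2. It kept its call in 6 of 16 fits without 1 array, those that left out cow 4 of days 20-25, any cow of days 40-45 or cow 3 of days 150-160, and its adjusted p was up to 0.108 in the others.

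Besides CYP11B1, the enzymes that fell were the 2 that interconvert cortisol and cortisone. HSD11B1, which regenerates cortisol, measured -4.82, -3.58, -3.30 and -3.78 on days 150-160 against -3.15 to -1.86 in cyclic cows, a difference of -1.53 (SE 0.42, adjusted p = 0.0372). It was -2.29 within slide 1 and -0.77 within slide 2, and the call was lost without cow 1, 2 or 4 of the cyclic group or of days 150-160 (adjusted p up to 0.1). HSD11B2, which inactivates cortisol, measured -3.29, -4.60, -3.57 and -2.36 against -1.98 to 0.22, a difference of -2.06 (SE 0.58, adjusted p = 0.0422) that was called in 5 of 16 fits without 1 array, those without cyclic cow 3, cow 4 of days 20-25, cow 1 or 4 of days 40-45 or cow 4 of days 150-160 (adjusted p up to 0.122 in the others). Within slides 1 and 2 it was -3.09 and -1.03, and cyclic cow 2, at 0.22, stood 2 units above the other cyclic cows. With only the 2 groups in the fit AKR1C4, HSD11B1 and HSD11B2 were not called (adjusted p = 0.0767, 0.0768 and 0.11).

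None of the 14 enzymes was called on days 20-25 or 40-45. The aromatase CYP19A1, which makes estrogen from androgen, was well above background in every gland and was not called in any stage. Its differences from cyclic were 0.32, -0.02 and -0.05 in the 3 stages (SE 0.34 each, adjusted p = 0.683, 0.993 and 0.945). On days 150-160 cytochrome b5, CYB5A, which assists the lyase step of CYP17A1, differed from cyclic by 0.09 (adjusted p = 0.819). So CYP17A1 and AKR1C4 were the members of the androgen and estrogen side that passed the test, and 9 of the 14 enzymes passed in no stage.

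**Figure D4:**
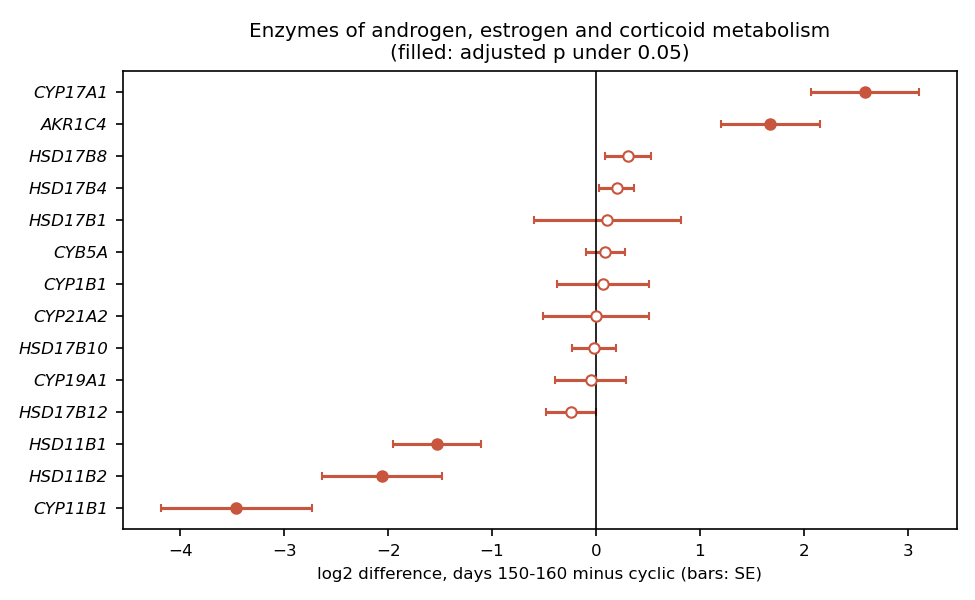
Difference of days 150-160 from cyclic cows (log2, points, with SE bars) for the 14 enzymes of androgen, estrogen and corticoid metabolism that were tested, with filled points where the adjusted p is under 0.05. CYP17A1 and AKR1C4 lie to the right, HSD11B1, HSD11B2 and CYP11B1 to the left, and the 9 others lie near 0. The CYP11B1 point rests on surrogate values on days 150-160.

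Genes reported as targets of NR5A1 or NR5A2 were followed as 22 genes, 20 of them on the array and 18 tested. On days 150-160, 2 were higher than in cyclic cows (CYP17A1 and the prolactin receptor PRLR, 2.71, adjusted p = 0.0104) and 2 were lower (CYP11B1 and the hormone oxytocin, OXT, -7.97, adjusted p = 3.44e-07), against 4.65% and 3.32% of all probes, with a median of -0.02 against 0.026 for all probes; the call of CYP11B1 rests on surrogates. PRLR differed by 4.30 within slide 1 and 1.12 within slide 2 (not called in the latter, adjusted p = 0.233), by 3.31 without cyclic cow 3, and with only the 2 groups in the fit it was not called (adjusted p = 0.0827). On days 40-45 only OXT was called, at -4.05 (adjusted p = 0.000534, and -3.36 with 0.12 within slide 2), and on days 20-25 no target was. The targets that a corpus luteum uses to make progesterone were not among those called.

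The genes of progesterone synthesis numbered 10 in the list, of which 9 were tested and none was called in any of the 3 stages. STAR, which moves cholesterol into mitochondria, differed from cyclic by 0.22, 0.20 and 0.25 in the 3 stages (adjusted p = 0.671, 0.767 and 0.565), although its sign on days 150-160 turned to -0.15 within slide 2. CYP11A1, which cleaves the cholesterol side chain, differed by -0.03, 0.07 and 0.28 (adjusted p = 0.953, 0.922 and 0.398). HSD3B1, which forms progesterone, differed by -0.08, 0.40 and 0.41 (adjusted p = 0.897, 0.451 and 0.3). The smallest p-values of the list belonged to LHCGR, the receptor for luteinizing hormone, and to the electron carrier FDX1, at -1.07 (adjusted p = 0.258) and 0.74 (adjusted p = 0.289) on days 20-25.

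Coregulators of the NR5A receptors were 20 genes, 9 of them on the array and 7 tested, and none was called in the 3 stages. NR0B1, also called DAX1, a repressor of NR5A1 activity, was lowest on days 150-160, at -2.70 ± 0.44 against -1.59 ± 0.92 in cyclic cows (SD, n = 4 each), a difference of -1.11 (SE 0.38, adjusted p = 0.0859). Without cyclic cow 2 it was called (-1.46, adjusted p = 0.022). CITED2, a coactivator, differed by 1.13 on days 20-25 (SE 0.35, adjusted p = 0.168), with groups that do not overlap, as for 5.73% of all probes in that direction.

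Other transcription factors of steroid-making cells were 30 genes, 22 of them on the array and 21 tested. On days 150-160, 2 were called higher and 1 lower, against 4.65% and 3.32% of all probes. The higher were WT1, a zinc finger factor of the developing gonad, by 1.00 (SE 0.17, adjusted p = 0.0037), and EGR1, an immediate early gene, by 1.09 (SE 0.26, adjusted p = 0.0217). WT1 was called in all 16 fits without 1 array and EGR1 in 12 of 16, losing its call without cow 1 or 4 of either group (adjusted p up to 0.0589). Within slides 1 and 2 WT1 differed by 1.17 and 0.83 (adjusted p = 0.0801 and 0.203) and EGR1 by 1.24 and 0.95 (adjusted p = 0.106 and 0.473), and EGR1 was not called with only the 2 groups in the fit (adjusted p = 0.107). The estrogen receptor ESR2 was called lower on days 40-45 and 150-160, at -2.54 and -2.18 (adjusted p = 0.000132 and 0.000217), but it was well above background in 3 cyclic cows and in no pregnant cow, so it passed the filter through the cyclic group alone. It held the surrogate on 2 arrays of days 40-45 and on all 4 of days 150-160. With values not well above background raised to the floor its differences were -0.34 and 0.06 (adjusted p = 0.478 and 0.896). With normexp they were -0.40 and -0.37 (adjusted p = 0.271 and 0.177). No fold is given for days 150-160. The bound for days 40-45 is 1.21-fold on these arrays, which leaves out sampling error and so establishes no smallest fold.

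Genes whose levels over the 16 arrays were most like each member's were looked up among 5978 or 5979 tested probes with a symbol, as a description by Pearson r over 16 arrays that share groups and slides. For CYP17A1 they were the arsenic methyltransferase AS3MT (r = 0.89), the retinol and steroid dehydrogenase DHRS9 (r = 0.87) and the lactate dehydrogenase LDHD (r = 0.86). None of the 3 was among the 3 closest by Spearman rank or by deviations from the group means.

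For CYP11B1 the closest were PAFAH2 (r = 0.92), TNFAIP6 (r = 0.89), a hyaluronan-binding protein of the ovulating follicle, and NDUFA9 (r = 0.86). Of the 16 CYP11B1 values behind these, 12 are not well above background and 4 of those are surrogates. OXT was among the 3 closest to CYP11B1 by Spearman rank. For NR5A2 the closest were MYL6B (r = 0.83), PTHLH (r = 0.78) and ZNF750 (r = 0.77), and PTHLH, parathyroid hormone-like hormone, was also the closest by deviations from the group means (r = 0.89). For NR5A1 probe 1 they were GPAA1, NENF and SCAMP3 (r = 0.91, 0.86 and 0.82), and for NR5A1 probe 2 ITIH3, APOLD1 and CXCL3 (r = 0.89, 0.87 and 0.86). The 2 NR5A1 probes shared no gene among these.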

How the data were processed

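RNA of 16 glands was labelled with Cy3 and hybridised to 1-colour arrays, per the labels' protocols. Scans were read with Agilent Feature Extraction 9.5, per the submitters' processing notes. The deposited processed signal is an intensity, background-subtracted per the file headers, with a surrogate where it does not exceed its error. The authors' deposited log2 value table equals log2 processed signal minus a constant (largest departure 0.00461; column medians -3.18 to -2.98) and served as an alternative.

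Leaving out 536 control spots left 15208 probes, and 36 outlier-flagged spots were set to missing. Values are log2 signal minus the array's 75th percentile. Names came from the files and a RefSeq gene table (ARS-UCD, names only): 7079 probes have a symbol. Some probes of a gene disagree; in lists the brightest was used. Groups were compared with limma 3.58.1 (lmFit, eBayes) in R 4.3.3 over all 16 arrays, two-sided, with Benjamini-Hochberg adjustment over 11943 probes, and called at an adjusted p under 0.05, in 6 pairwise comparisons and a moderated F test. The fit was tested on simulated data.

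The members and lists were chosen with earlier results of these data known. Named genes were all member probes; from each list those called against cyclic (up to 6), or otherwise the 2 with the smallest p; the 3 closest in pattern; and STAR, CYP11A1, HSD3B1, NR0B1 and CYP19A1. INSL3, CYP21A2, MC2R, CYB5A and other cell type markers were named after their values were seen. Alternatives were other background corrections, scalings, filters, slide and replicate blocks and single arrays left out. The number of arrays limits the precision.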

Additional observations from a re-analysis of the deposited data

Results flagged for a closer look

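Among 100 groups of 4 arrays, 5 held a cow far from the other 3, with a gap to the nearest cow, as a share of the group's range, past Dixon's 95% critical value. Chance passes it in about 1 of 20 groups. In the cyclic group, NR5A1 probe 1 was lowest in cow 2 at -3.43 (nearest -2.96, share 0.864), CYP17A1 was highest in cow 3 at -2.36 (nearest -3.12, share 0.839), HSD11B2 was highest in cow 2 at 0.22 (nearest -1.88, share 0.958) and ESR2 was lowest in cow 3 at -7.14 (nearest -6.40, share 0.944). On days 20-25 HSD11B2 was highest in cow 4 at -0.87 (nearest -2.61, share 0.976).

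The differences of days 150-160 and of days 20-25 from cyclic cows were not equal for CYP17A1: they differed by 2.48 in the fit itself (adjusted p = 0.0278), with the 4 glands of days 150-160 above the 4 of days 20-25. This is the same comparison as that of days 150-160 with days 20-25 in the report. The call was lost within slides 1 and 2 (adjusted p = 0.137 and 0.422), with only the 2 groups in the fit (0.128) and without any 1 of cows 1, 2 and 3 of days 20-25 and cow 2 of days 150-160 (up to 0.0864).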

How the results depend on the processing

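Of 834 values of the 5 probes recomputed under other settings, 803 kept their direction and their side of the threshold, 15 lost a call, 3 gained one and 13 changed sign. Most of these values belong to comparisons not called in the main fit, which had no call to lose. Leaving out an array of a group not compared cannot change a difference. The count of 803 is therefore no measure of how firm the calls are. The cause of a change was not tested except where the construction shows it (fewer arrays, or raised floors). CYP17A1 on days 150-160 against cyclic was not called within slide 1 (2.35), within slide 2 (2.84) or with only the 2 groups in the fit (2.59), and ranged from 1.94 to 2.97 with 1 array left out. CYP11B1 in that comparison was not called with normexp (-0.93), raised floors (-1.35), within slides (-3.08 and -3.84) or with only the 2 groups (-3.46). It ranged from -4.26 to -2.81 with 1 array left out, and on days 40-45 from -3.87 to -2.41. The bound on its fold on days 150-160 ranged from 1.42 to 3.9 and on days 40-45 from 1.87 to 5.12 with 1 array left out. Requiring all 4 arrays of a group above background removes CYP11B1. Small differences from cyclic changed sign. Within slide 1, NR5A1 probe 1 on days 150-160 was -0.01, NR5A1 probe 2 on days 40-45 was 0.08 and CYP17A1 on days 40-45 was 0.10. Within slide 2, NR5A1 probe 2 on days 20-25 was -0.08, NR5A2 on days 40-45 was -0.11 and STAR on days 150-160 was -0.15. With 1 array left out the ranges were -0.08 to 0.31 for NR5A1 probe 1 on days 150-160, -0.43 to 0.05 and -0.21 to 0.28 for NR5A2 on days 20-25 and 40-45, -0.10 to 0.33 and -0.27 to 0.04 for CYP17A1 on the same days, and -0.06 to 0.64 for CYP19A1 on days 20-25. CYP11B1 on days 150-160 against days 40-45, neither well above background, turned from -0.40 to 0.22 (normexp) and 0.39 (floor), and ESR2 on days 150-160 to 0.06 (floor). The counts of all probes called moved most: against cyclic on days 150-160 from 952 to 254 and 21 within slides and 315 with 2 groups (583 to 1104 with 1 array left out), on days 40-45 from 147 to 51 and 12 within slides, 73 with 2 groups, 94 with normexp and 90 without a filter (63 to 226 with 1 array left out), and on days 20-25 from 35 (74.3% higher) to 5 and 6 within slides, 2 with 2 groups, 78 with slide as a block and 25 with normexp (88.0% higher; 4 to 85 with 1 array left out). Replicate numbers were shared by the groups, but the correlation of deviations was over 0.1 in 9 of 24 same-number pairs of arrays and not in all, so they were not taken as pairs. Of the 16 arrays, 9 were closest to 1 of their own number, but arrays of the same number also share a slide. This count therefore cannot tell pairing from slide. The median correlation was 0.09 for the same number, 0.05 for another number on the same slide and -0.09 across slides. With the replicate block, CYP17A1 and CYP11B1 on days 150-160 kept their calls (2.59, adjusted p = 0.00981, and -3.46, adjusted p = 0.0169), the F test of CYP11B1 was 0.0509, and 1086 probes were called in place of 952. Probes near background have only bounds.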
